A study of Homo sapiens with 4 samples.

Results

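The genes described here are 10 regulators of the BCL2 family, which decide whether mitochondria release the factors that start apoptosis. They were taken by name, as the rows of the count table whose symbol was BCL2, BCL2L1, MCL1, BAX, BAK1, BCL2L11, BBC3, PMAIP1, BAD or BIK, and all 10 were found among the 24014 genes of the table. The RNA-seq libraries came from SK-N-SH, a human neuroblastoma line whose cultures hold adrenergic (neuroblast-like) and mesenchymal (substrate-adherent) cells. The control group had 2 libraries from wild-type cells infected with an empty lentiviral vector, and the AP1AR-DT_OE group had 2 libraries from cells infected with a lentivirus that carries the long non-coding RNA AP1AR-DT (called AC109347.1 in the labels). For AP1AR-DT_OE replicate 2 the genotype and treatment labels name the RNA with the suffix of another version (AC109347.2), and its title was followed. The sources used here do not say whether the cells were selected or cloned after infection, nor whether the replicates were separate cultures, so p-values measure only the spread between these libraries, which may be technical.

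In the mitochondrial pathway of apoptosis, the pro-survival proteins BCL2, BCL-XL (from BCL2L1) and MCL1 hold the pore-forming effectors BAX and BAK1 in check. The BH3-only proteins BIM (BCL2L11), PUMA (BBC3), NOXA (PMAIP1), BAD and BIK sense stress and act by binding the pro-survival proteins or the effectors. Neuroblastoma cells depend to a varying degree on BCL2, BCL-XL and MCL1, which has made the family a drug target in this tumour. Much of its control lies in protein turnover and phosphorylation, which RNA-seq does not see.

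All members share the short BH3 region, which takes part in binding between members, and its coding sequence is shown because all 10 genes have it in common. The coding sequence of the MANE Select transcript of each gene (GENCODE v44 mapped to GRCh37) was translated and searched for the core of the region, namely leucine, 3 residues of any kind, glycine, alanine or serine, and then aspartate. In each of the 10 genes the pattern was found exactly once. It is not rare in general, since 37.6% of the 14590 coding sequences of measured genes held it, and 17.7% of the 4940 that were no longer than that of the longest member. The lines below give 30 bases of the coding strand, 5′ to 3′, with the 18 bases of the core in capitals.
BCL2: ctgaccCTCCGCCAGGCCGGCGACgacttc
BCL2L1: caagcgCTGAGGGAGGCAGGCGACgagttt
MCL1: gagaccTTACGACGGGTTGGGGATggcgtg
BAX: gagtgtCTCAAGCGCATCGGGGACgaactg
BAK1: cggcagCTCGCCATCATCGGGGACgacatc
BCL2L11: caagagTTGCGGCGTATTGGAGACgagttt
BBC3: gcccagCTGCGGCGGATGGCGGACgacctc
PMAIP1: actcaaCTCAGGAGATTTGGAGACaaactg
BAD: cgcgagCTCCGGAGGATGAGTGACgagttt
BIK: ctgcggCTGGCCTGCATCGGGGACgagatg

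The core began at codon 97 of 239 in BCL2, 90 of 233 in BCL2L1 and 213 of 350 in MCL1. In the effectors it began at codon 63 of 192 in BAX and 78 of 211 in BAK1. Among the BH3-only genes it began at codon 152 of 198 in BCL2L11, 141 of 193 in BBC3, 29 of 54 in PMAIP1, 114 of 168 in BAD and 61 of 160 in BIK, so that PMAIP1 has much the shortest coding sequence. Each window lies in a single coding exon. On GRCh37 the windows are chr18:60985588-60985617 (BCL2, minus strand), chr20:30309731-30309760 (BCL2L1, minus), chr1:150551347-150551376 (MCL1, minus), chr19:49459038-49459067 (BAX, plus), chr6:33543170-33543199 (BAK1, minus), chr2:111907674-111907703 (BCL2L11, plus), chr19:47729842-47729871 (BBC3, minus), chr18:57569899-57569928 (PMAIP1, plus), chr11:64039100-64039129 (BAD, minus) and chr22:43523716-43523745 (BIK, plus). The windows also show how unlike the genes are in base composition, from 43.3% G or C in PMAIP1 and 50% in BCL2L11 to 73.3% in BCL2 and 76.7% in BBC3. Over the longest transcript, UTRs included, the GC content was 36.7% for PMAIP1, 44.7% for MCL1, 45.6% for BCL2 and 46.6% for BCL2L11, and it lay between 55.9% (BIK) and 69.7% (BBC3) for the remaining 6. Genes whose normalized count (counts divided by the size factor of the library) averaged 50 or more over the 4 libraries are called expressed genes from here on. There were 13298, and over the 13284 of them with a known GC content its median was 49.0%. BCL2 thus has a GC-rich BH3 window and a transcript that is poorer in GC than the median gene.

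The libraries held between 21988065 and 26184599 counts, where 1 read pair was taken as about 4 counts. AP1AR-DT itself, listed under the symbol RP11-73K9.2, rose from 3 and 18 counts in the control libraries to 680 and 1065 with overexpression (Log2FC = 6.63, adjusted p = 3.64e-21 by DESeq2), as the labels say. Libraries with the same replicate number in their titles (number 1 or number 2) resembled each other, and the libraries of a group differed along GC content. Across 13231 genes the log2 ratio of control 2 over control 1 had a Spearman rho of -0.77 with the GC content of the transcript, and across 13234 genes the ratio of AP1AR-DT_OE 2 over AP1AR-DT_OE 1 had a rho of -0.65. Both are correlations over genes, and genes are no independent replicates. The labels do not call the number a batch. Since it separates the libraries, the ratio of AP1AR-DT_OE over control is also given for number 1 and number 2 alone. Of 12 adrenergic markers fixed as a list, 10 were expressed (HAND2 and DBH among them) and TH was not analysed here. Of 12 mesenchymal markers 11 were expressed. The summed normalized counts were 31638 and 26575 (control) and 30438 and 28717 (AP1AR-DT_OE) for the adrenergic list, and 226829 and 171521 against 226774 and 189578 for the mesenchymal list, so the ranges of the groups overlapped in both. These sums were carried by abundant genes. HAND2 alone held between 12211 and 15659 in a library, and VIM between 67917 and 93086. They say little about the less abundant markers.

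None of the 10 members was called between the groups. Of all 24014 genes, 0.137% were called (33 genes, 20 higher and 13 lower in AP1AR-DT_OE, DESeq2 Wald test, adjusted p under 0.05) and 0.816% had an unadjusted p under 0.05. No member had an unadjusted p under 0.05. With edgeR (quasi-likelihood) 0 genes were called and 112 had an unadjusted p under 0.05, with no member among them. That fit did not call AP1AR-DT either, so its lack of member calls carries little weight. BIK lay under the floor of 12 counts (3 read pairs at about 4 counts each) in all libraries. For the remaining 9 members the groups overlapped in every case, where 9.45% of the 13298 expressed genes did not overlap. The median Log2FC of the 9 was -0.06 and that of these 13298 genes -0.02. The median size of the Log2FC, whatever its sign, was 0.09 against 0.12.

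The members differed widely in level. Compared per kb of the longest transcript, BAD (2857 ± 675 normalized counts per kb, SD over n = 4 libraries), BCL2L1 (2109 ± 559), BAX (1768 ± 482) and MCL1 (1409 ± 411) were the most abundant, at the 95.2, 93.3, 92.0 and 89.8 percentile of expressed genes. BBC3 (861 ± 176), BAK1 (568 ± 174) and PMAIP1 (258 ± 187) followed. BCL2L11 (23.0 ± 11.8) and BCL2 (20.5 ± 5.66) were near the bottom, at the 10.5 and 8.96 percentile. BIK had 5.93 ± 2.12, from counts too low to be told from 0.

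Of the 3 pro-survival members, BCL2L1 and MCL1 were far above BCL2. Per kb, BCL2 made up between 0.424% and 0.785% of the sum of these 3 in a library, BCL2L1 between 42.7% and 71.8% and MCL1 between 27.8% and 56.5%. In the order of levels, the ranges of neighbouring members overlapped between BAD, BCL2L1, BAX and MCL1. BAD was above BCL2L1 in 4 of 4 libraries, and BCL2L1 above BAX in 2 of 4. MCL1 did not overlap with BBC3, nor PMAIP1 with BCL2L11, over which it was 11.2-fold higher. BCL2L11 and BCL2 overlapped and could not be ranked. The order of BCL2L1, BAX and MCL1 depended on the length used: per kb of the MANE Select transcript BAX (3020) came before BCL2L1 (2669), and per kb of all exons of the gene MCL1 (1030) came before BAX (928) and BAK1 (568) before BBC3 (499). BCL2L11, BCL2 and BIK were the lowest with all 3 lengths.

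**Figure D1:**
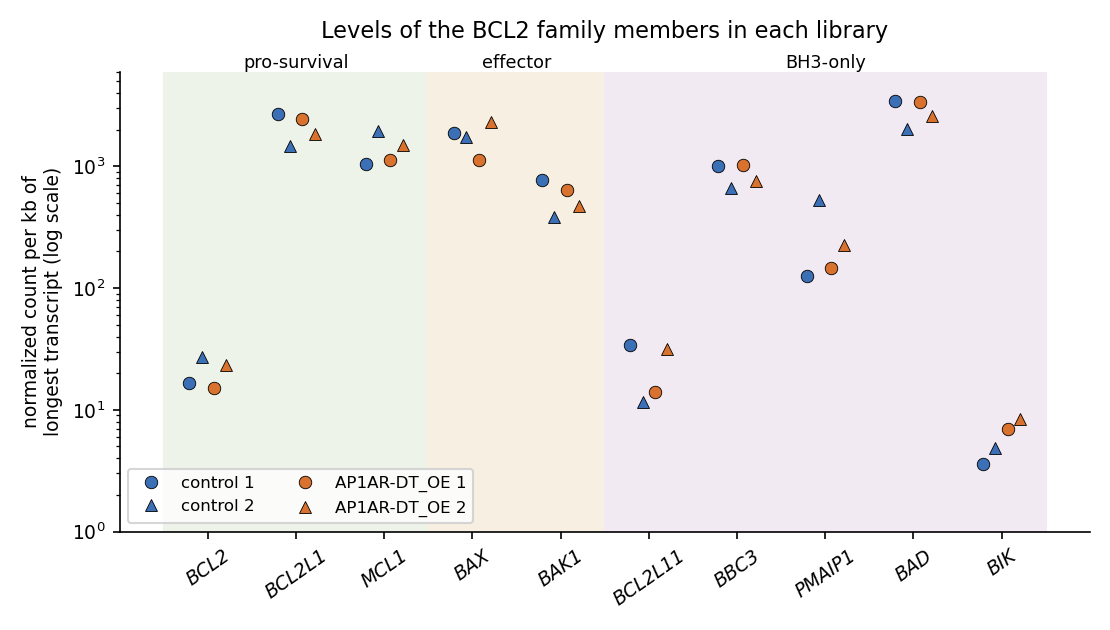
Normalized count per kb of the longest transcript (log axis) of the 10 members in each of the 4 libraries, with control in blue, AP1AR-DT_OE in orange, number 1 as circles and number 2 as triangles. BAD, BCL2L1, BAX and MCL1 lie between 1049 and 3419, while BCL2, BCL2L11 and BIK lie between 3.59 and 34.4.

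BCL2L1, whose main product BCL-XL blocks both effectors, had 7739 and 6225 counts in the control libraries against 7203 and 6009 with overexpression. Both AP1AR-DT_OE libraries lay between the controls after normalization (8814 and 4802 in control, 7901 and 5964 in AP1AR-DT_OE). The group means were 6808 ± 2837 and 6933 ± 1369 (SD, n = 2). The Log2FC was 0.03 (SE = 0.48, adjusted p = 1), and its 95% interval ran from 0.534-fold to 1.94-fold. For number 1 alone the log2 ratio was -0.16 and for number 2 it was 0.31. ABALON, which has 1735 exon bases in common with BCL2L1 on the opposite strand, was not analysed here.

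MCL1, a pro-survival protein of very short half-life, had 4190 and 11488 counts in control and 4692 and 6911 in AP1AR-DT_OE. Here number 2 was the higher library of each group, the reverse of BCL2L1. Normalized, the group means were 6817 ± 2892 and 6003 ± 1211 (SD, n = 2), with a Log2FC of -0.18 (SE = 0.48, adjusted p = 1, 95% interval 0.460-fold to 1.68-fold). Taken by number, the log2 ratio was 0.11 (number 1) and -0.37 (number 2). ADAMTSL4-AS1, which has 328 exon bases in common with MCL1 on the same strand, had no more than 9 counts in any library.

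BCL2, the founding member and the target of venetoclax, was low, with 108 and 262 counts in control and 103 and 175 in AP1AR-DT_OE. Again the number 2 libraries were the higher ones. Group means were 163 ± 55.9 and 143 ± 42.9 normalized counts (SD over n = 2), with a Log2FC of -0.18 (SE = 0.60, adjusted p = 1). The 95% interval, from 0.388-fold to 2.001-fold, was wider than for the abundant members. BCL2 was 1 of 2 members, with BBC3, whose ratio had the same sign in both numbers (-0.12 and -0.22).

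Of the effectors, BAX varied most within AP1AR-DT_OE. Its counts were 2235 and 3091 in control and 1407 and 3153 in AP1AR-DT_OE. The controls were close after normalization (2546 and 2384), whereas AP1AR-DT_OE 1 was the lowest library (1543) and AP1AR-DT_OE 2 the highest (3129). The 2.03-fold difference between the AP1AR-DT_OE libraries was beyond counting error (exact Clopper-Pearson 95% interval over read pairs 1.78 to 2.303, which covers counting error only). The group means were 2465 ± 114 and 2336 ± 1122 (SD, n = 2), and the Log2FC was -0.08 (SE = 0.49, adjusted p = 1, 95% interval 0.489-fold to 1.84-fold). Taken by number, the log2 ratio was -0.72 (number 1) and 0.39 (number 2). No other gene of the annotation overlapped BAX.

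BAK1, the effector that resides in the outer mitochondrial membrane, had 1508 and 1102 counts in control and 1285 and 1053 in AP1AR-DT_OE. Both AP1AR-DT_OE libraries lay between the controls once normalized, and the controls themselves differed 2.02-fold. Group means were 1284 ± 613 and 1227 ± 258 normalized counts (SD over n = 2), giving a Log2FC of -0.06 (SE = 0.50, adjusted p = 1, 95% interval 0.483-fold to 1.90-fold), with log2 ratios of -0.29 and 0.30 in the numbers.

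Among the BH3-only genes, PMAIP1 had the Log2FC furthest from 0 of the 9 members above the floor. Its counts were 208 and 1307 in control and 255 and 436 in AP1AR-DT_OE. Control 2 stood 4.26-fold above control 1 in normalized counts (1008 against 237), and both AP1AR-DT_OE libraries (280 and 433) lay between them. Group means were 623 ± 545 and 356 ± 108 (SD over n = 2), with a Log2FC of -0.81 (SE = 0.64, unadjusted p = 0.21 and adjusted p = 1 by DESeq2). The 95% interval ran from 0.238-fold to 1.37-fold. Taken by number, the log2 ratio was 0.24 (number 1) and -1.22 (number 2). A single library decided the value: without control replicate 2 the Log2FC was 0.60 (unadjusted p = 0.29 by DESeq2), and without control replicate 1 it was -1.504 (unadjusted p = 0.0034, adjusted p = 0.50), where the lone control is assumed to vary like the other group. PMAIP1 also had the lowest GC content of the members, and with the GC trend of the libraries taken out its Log2FC was -0.46.

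BCL2L11 (BIM), a strong killer that binds all pro-survival proteins, gave a crossed pattern. Its counts were 156 and 78 in control and 66 and 166 in AP1AR-DT_OE. Control 1 and AP1AR-DT_OE 2 were high and the other two libraries low, so the groups had nearly equal means, 119 ± 83.1 and 119 ± 65.3 normalized counts (SD over n = 2). The fitted Log2FC was 0.0011 (SE = 0.73, adjusted p = 1). Within number 1 AP1AR-DT_OE was 0.407-fold of control (exact counting interval 0.206 to 0.724), and within number 2 it was 2.74-fold (1.55 to 4.86). The directions were thus opposite and both beyond counting error. The 95% interval of the pooled value was the widest of the 9, from 0.371-fold to 2.70-fold. The host gene of MIR4435-2 (listed as MIR4435-1HG) has 727 exon bases in common with BCL2L11 on the opposite strand, and had 218 and 601 counts in control and 305 and 453 in AP1AR-DT_OE. Whether counting used the strand of reads is not given in the sources used here, so reads of these genes cannot be told apart where they overlap.

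BBC3 (PUMA), a BH3-only protein that binds all pro-survival proteins, was the steadiest member. It had 1622 and 1595 counts in control and 1715 and 1409 in AP1AR-DT_OE, and its highest library was 1.53-fold above its lowest after normalization. Group means were 1539 ± 436 and 1640 ± 341 normalized counts (SD over n = 2), giving a Log2FC of 0.09 (SE = 0.46, adjusted p = 1, 95% interval 0.567-fold to 2.004-fold). Taken by number, the log2 ratio was 0.03 (number 1) and 0.18 (number 2). For comparison, the highest library was 1.77-fold above the lowest for the median expressed gene, and 1.86-fold for the median member.

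BAD, a sensitizer that binds BCL2 and BCL-XL and is inactivated by phosphorylation, was the most abundant BH3-only RNA. It had 3473 and 3017 counts in control and 3568 and 3047 in AP1AR-DT_OE, or 3141 ± 1151 and 3469 ± 629 normalized counts (SD over n = 2). The Log2FC was 0.14 (SE = 0.47, adjusted p = 1, 95% interval 0.585-fold to 2.09-fold), and by number the log2 ratio was -0.02 (number 1) and 0.38 (number 2). BAD has 404 exon bases in common with GPR137 on the opposite strand, which had 2016 to 2151 counts in control and 1850 to 2274 in AP1AR-DT_OE. BIK, an ER-resident BH3-only gene, had 3 and 6 counts in control against 6 and 8 with overexpression. As all lie under the floor, no fold is given, and BIK was not detectable at this depth.

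**Figure D2:**
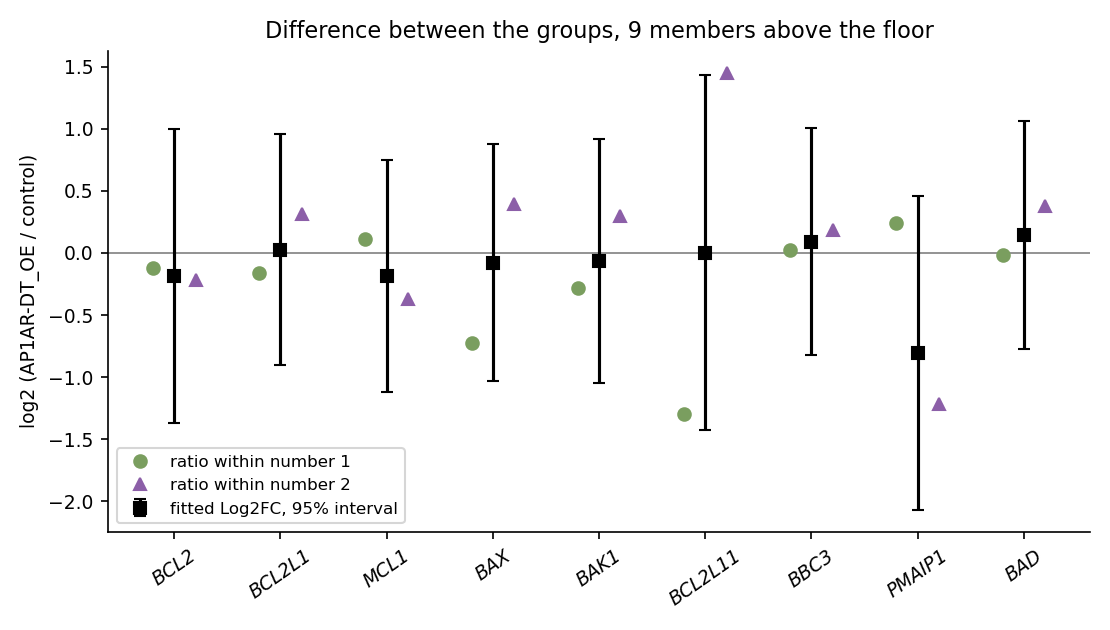
Log2 of AP1AR-DT_OE over control for the 9 members above the floor, with the value fitted by DESeq2 as a square, its 95% interval as a bar, and the ratio of normalized counts within number 1 (circle) and number 2 (triangle). All 9 intervals include 0, and the ratios of 7 members have opposite signs in the numbers.

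The intervals set what these libraries could have shown. With SE between 0.46 and 0.73, they left room for changes near 2-fold in at least one direction for every member, so that changes of this size were not detectable at this replication. The highest upper bound was 2.70-fold, for BCL2L11, and the lowest lower bound was 0.238-fold, for PMAIP1. For 6 of the 9 members both AP1AR-DT_OE libraries lay between the controls, where 50.2% of expressed genes did so.

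Most members differed between the numbers in the same direction in both groups. In the controls, PMAIP1 (log2 ratio of number 2 over number 1 of 2.09), MCL1 (0.89) and BCL2 (0.72) were higher in number 2, and the GC-rich BAK1 (-1.01), BCL2L1 (-0.88), BAD (-0.77) and BBC3 (-0.59) were lower. In AP1AR-DT_OE the same 7 members had the same signs, with PMAIP1 at 0.63, BCL2 at 0.62 and MCL1 at 0.41, and BAK1 at -0.43, BBC3 at -0.43, BCL2L1 at -0.41 and BAD at -0.37. The other two did not follow. BCL2L11 was at -1.56 in the controls and 1.19 in AP1AR-DT_OE, and BAX at -0.09 and 1.02. Over the 9 members the Spearman rho with GC content was -0.48 in control and -0.45 in AP1AR-DT_OE (a description over 9 genes that share 4 libraries). After the GC trend was taken out, the ratio in AP1AR-DT_OE lay between -0.18 and 0.12 for BCL2L1, MCL1, BAK1, BBC3, PMAIP1 and BAD, at 0.41 for BCL2, and at 1.34 for BAX and 1.07 for BCL2L11. In the controls it was 0.77 for PMAIP1, 0.61 for BAX and -1.84 for BCL2L11, and between -0.32 and 0.35 for the other 6. The differences of BAX and BCL2L11 between the libraries of a group were thus not smaller, apart from BCL2L11 in AP1AR-DT_OE, once the GC trend was removed. The part of GC content in any difference of a member was not tested.

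**Figure D3:**
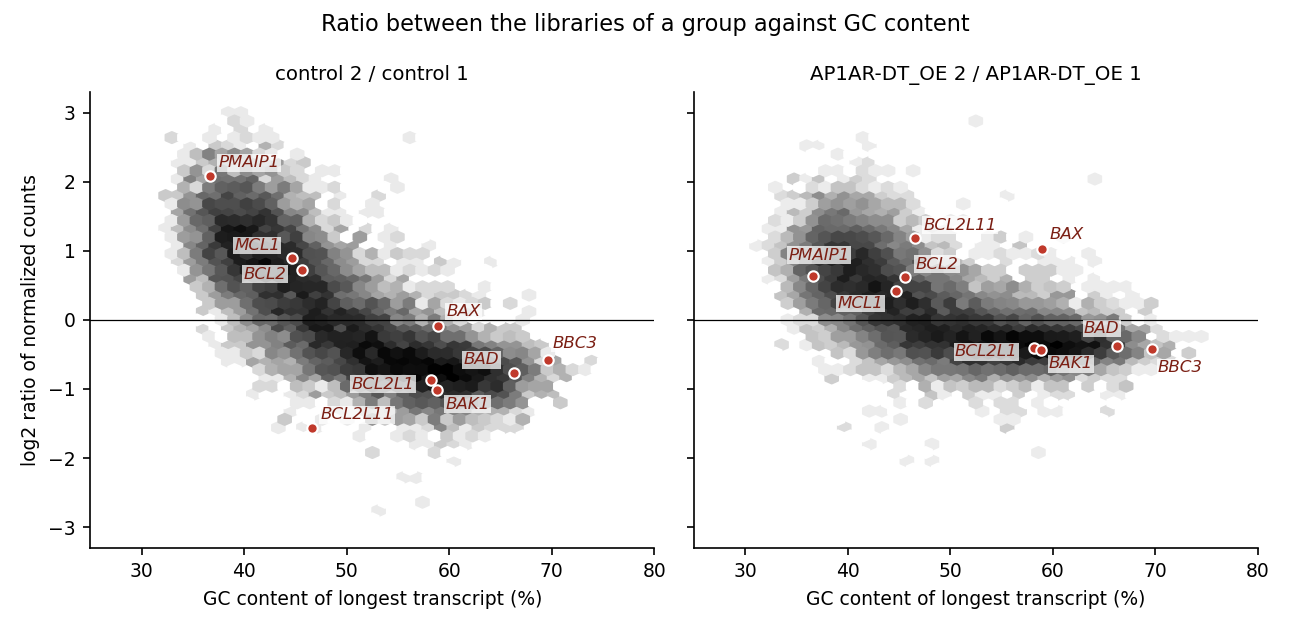
Log2 ratio of normalized counts of number 2 over number 1 against the GC content of the longest transcript (%), for control (left) and AP1AR-DT_OE (right). Grey hexagons are expressed genes with a ratio within the axis, darker where genes are denser (log scale), and red points are the 9 members above the floor. BCL2L11 lies below the cloud on the left and above it on the right, and BAX lies above it on the right.

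Pro-death and pro-survival members were then compared within each library. Summed per kb, the 7 pro-death members exceeded the 3 pro-survival members in every library, by 1.92-fold and 1.56-fold in control and 1.78-fold and 1.91-fold in AP1AR-DT_OE. The ranges of the groups overlapped. Its log2 averaged 0.79 ± 0.21 in control and 0.88 ± 0.07 with overexpression (SD, n = 2), a difference of 0.09 that was below the pooled SD of 0.16. In number 1 the difference was -0.11 and in number 2 it was 0.29. No test was run on this ratio, since its members were chosen. With the other lengths the ratio lay between 1.37-fold and 2.13-fold. The sums hold unequal numbers of genes (7 against 3), and BAD alone made up between 37.5% and 53.3% of the pro-death sum. The excess thus describes the sums and not the single members, and the ratio was not computed without BAD. RNA levels per kb do not give the ratio of the proteins.

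The sums hid unequal parts. The pro-survival sum was the steadiest, at 3772 and 3449 normalized counts per kb in control and 3572 and 3362 in AP1AR-DT_OE, although MCL1 and BCL2L1 each moved by up to 1.86-fold and 1.84-fold between libraries. Their ratio swung from MCL1 at 0.388-fold of BCL2L1 in control 1 and 0.466-fold in AP1AR-DT_OE 1 to 1.32-fold in control 2 and 0.823-fold in AP1AR-DT_OE 2. The effector sum was 2651 and 2140 in control and 1774 and 2777 in AP1AR-DT_OE, and followed BAX. The BH3-only sum was 4582 and 3225 in control and 4570 and 3640 in AP1AR-DT_OE, of which BAD was the largest part.

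The ratio of BAX to BCL2, often used as an index of the threshold for apoptosis, was 114-fold and 64.8-fold in control and 75.1-fold and 99.0-fold in AP1AR-DT_OE. Its log2 averaged 6.42 ± 0.57 in control and 6.43 ± 0.28 with overexpression (SD, n = 2), a difference of 0.0058. It rested on the low counts of BCL2. Against BCL2L1, BAX was at 0.693-fold and 1.19-fold in control and 0.468-fold and 1.26-fold in AP1AR-DT_OE, so number 1 lay below 1 and number 2 above it in both groups. The ratios of BAK1 and BBC3 to BCL2L1 varied less. BAK1 was 0.287-fold and 0.261-fold of BCL2L1 in control and 0.263-fold and 0.258-fold in AP1AR-DT_OE. BBC3 was 0.370-fold and 0.452-fold of BCL2L1 in control and 0.420-fold and 0.414-fold in AP1AR-DT_OE.

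Of 12 ratios between single members, BAD over BCL2L1 was the one whose groups did not overlap. Of expressed genes, taken singly, 9.45% did not overlap. BAD was 1.26-fold and 1.36-fold of BCL2L1 in control and 1.39-fold and 1.43-fold in AP1AR-DT_OE. On the log2 scale this was 0.39 ± 0.08 and 0.50 ± 0.02 (SD, n = 2), a difference of 0.10. It was picked out after the values were seen and was not tested.

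**Figure D4:**
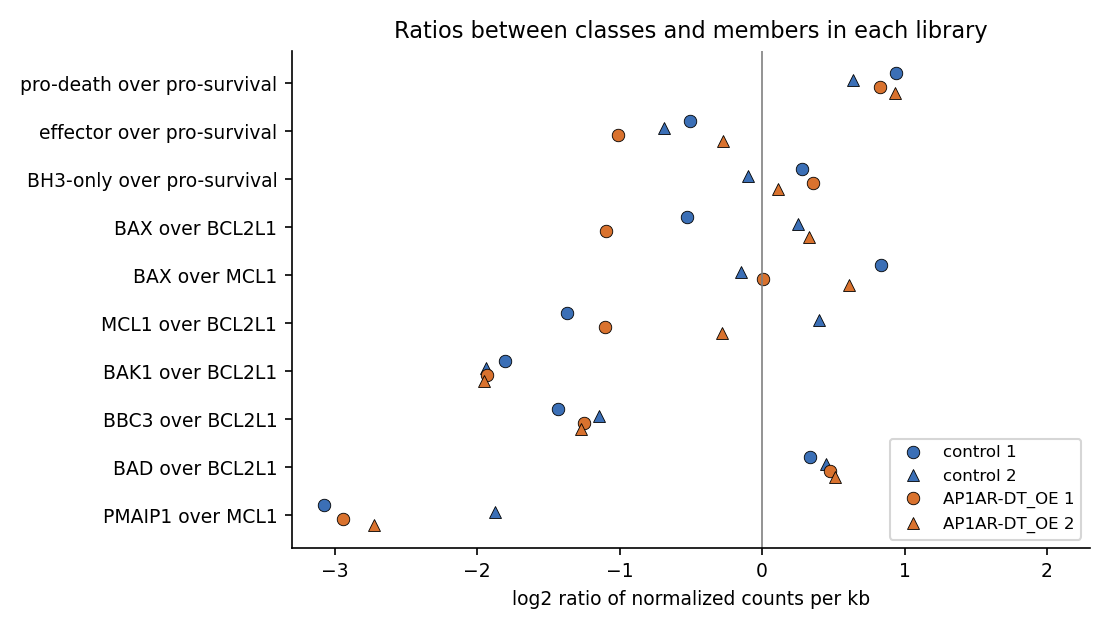
Log2 ratio of normalized counts per kb between classes (top 3 lines) and between single members in each library, with control in blue, AP1AR-DT_OE in orange, number 1 as circles and number 2 as triangles. The ratio of pro-death to pro-survival members lies between 0.64 and 0.94 in all 4 libraries, and MCL1 over BCL2L1 ranges from -1.37 to 0.40.

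Other genes of the family, listed together with some partners of its proteins such as VDAC2 and BCLAF1, gave the same picture. Of 18 listed, 17 were in the table and 13 were expressed, and none was called or had an unadjusted p under 0.05. The median Log2FC of the 13 was -0.05, with a range from -0.41 (BCLAF1, a nuclear protein that binds family members) to 0.21 (VDAC2, a mitochondrial channel that holds BAK1). The pro-survival BCL2L2 (BCL-W) had 786 and 1311 counts in control and 885 and 868 in AP1AR-DT_OE (Log2FC = -0.06). BID, the BH3-only protein cut by caspase 8, had 897 and 1871 against 894 and 1523 (Log2FC = 0.02). BMF (Log2FC = -0.23) and the effector-like BOK (-0.05) were measured at 200.2 and 266 normalized counts on average. The pro-survival BCL2A1 and the neuronal BH3-only gene HRK stayed at 4 counts or fewer in every library, and BCL2L14 likewise, so none of them was detectable at this depth. BCL2L10 reached 16 counts in AP1AR-DT_OE 1 and 10 in control 2 and was at 0 in the other two libraries.

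Downstream, the apoptosome and caspase genes (15 of 15 tested) had no call and no unadjusted p under 0.05, with a median Log2FC of -0.13. The furthest from 0 was APAF1, the scaffold of the apoptosome, with 71 and 125 counts in control and 97 and 199 with overexpression (Log2FC 0.78, SE = 0.64, adjusted p = 1). APAF1 was higher in both AP1AR-DT_OE libraries than in both controls after normalization, where 9.45% of expressed genes did not overlap between the groups. The inhibitor of apoptosis family had no call among the 8 tested. Of the 4 expressed ones, BIRC2 was at -0.56 and BIRC5 (survivin) at 0.26. The groups of BIRC5 did not overlap either, by a narrow margin (5955 normalized counts in AP1AR-DT_OE 2 against 5928 in control 1). In the death receptor arm none of 10 was called, and of the 9 expressed ones FAS (-0.27) and TNFRSF1A (0.11) were furthest from 0.

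Of 16 upstream regulators (FOXO3, ATF4, E2F1, HUWE1, the kinases that control BAD and BIM and others) none was called, with a median of -0.17. Of the 15 expressed ones, the furthest from 0 were the stress kinase gene MAPK8 (-0.52) and FBXW7 (-0.29), a ubiquitin ligase subunit that targets MCL1. MYCN had 16 counts or fewer in every library. The integrated stress response list (13 genes) had a median of -0.02, with ATF3 at -0.74 and DDIT4 at -0.47, the furthest from 0, and no call.

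The list of genes induced by DNA damage was the one pathway list with an unadjusted p under 0.05. None of its 18 genes was called. The median Log2FC was -0.18, and 17 of the 18 had a negative value, where 7302 of 13298 expressed genes did. The lean was not particular to this list. Of the 15 expressed upstream regulators 13 were negative, and over all pathway lists together 64 of 86 expressed genes were (median -0.10). GDF15, a secreted stress cytokine, had 1922 and 5063 counts in control and 923 and 1445 in AP1AR-DT_OE. Both AP1AR-DT_OE libraries lay below both controls after normalization, where 9.45% of expressed genes did not overlap between the groups. The group means of GDF15 were 3047 ± 1214 and 1223 ± 298 (SD, n = 2). The fitted value did not pass the test (Log2FC = -1.32, SE = 0.48, unadjusted p = 0.0065 and adjusted p = 1 by DESeq2). Taken by number, the log2 ratio was -1.11 (number 1) and -1.45 (number 2). With a block for the replicate number GDF15 was called (adjusted p = 1.6e-05 by DESeq2), although no label ties a number to a shared culture or day. The call differed with the control library left out. Without control replicate 1 the Log2FC was -1.68 with an adjusted p = 0.034 by DESeq2, and without control replicate 2 it was -0.83 with an adjusted p = 1. Next to GDF15 in size was PHLDA3, an inhibitor of AKT, with 19740 and 16203 counts in control and 18317 and 5216 with overexpression (Log2FC -0.47, SE = 0.60, adjusted p = 1). CDKN1A, an inhibitor of the cell cycle, was among the most abundant genes of all the lists and had a Log2FC of -0.12.

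Of the cell state markers, PRRX1, a transcription factor of the mesenchymal state, was the one with an unadjusted p under 0.05. It had 2432 and 14724 counts in control and 1131 and 2263 with overexpression (Log2FC -2.02, SE = 0.61, unadjusted p = 0.00099 and adjusted p = 0.43 by DESeq2). The Log2FC was -2.71 (adjusted p = 4.24e-06 by DESeq2) without control replicate 1 and -0.66 (adjusted p = 1) without control replicate 2. With GC correction and all libraries kept it was called, at -1.76 (adjusted p = 0.0011 by DESeq2). A block for the replicate number also called PRRX1 (Log2FC -1.75, adjusted p = 1.1e-07 by DESeq2), although no label ties a number to a shared culture or day. The median was -0.03 for the mesenchymal list (11 genes) and 0.01 for the adrenergic list (10 genes). As fewer cells of a type and less RNA per cell cannot be told apart in bulk samples, no level here is assigned to either cell state.

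**Figure D5:**
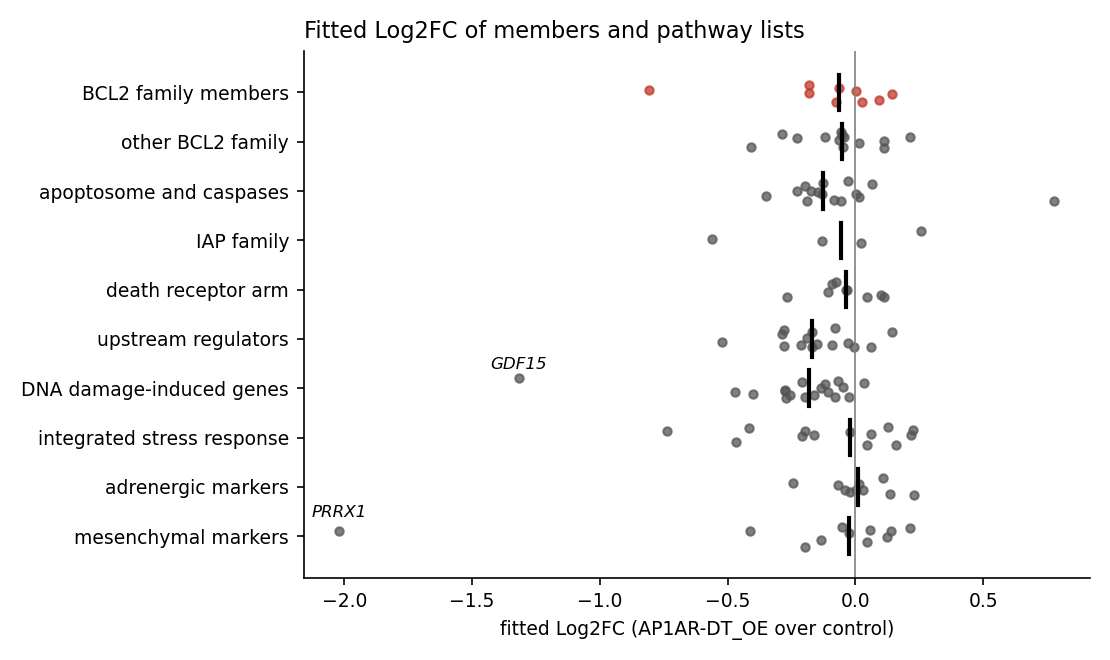
Fitted Log2FC of AP1AR-DT_OE over control for expressed genes, by list, with the BCL2 family members in red, other genes in grey and the median of each list as a black bar. The genes named on the plot, GDF15 and PRRX1, have an unadjusted p under 0.05, and the list medians lie between -0.18 and 0.01.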

How the data were processed

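RNA from SK-N-SH cells was sequenced in 4 libraries, 2 per group, assigned by title. The authors deposited counts per gene, which were fitted as given although they do not equal numbers of reads or read pairs. Per the paper's methods, paired reads were aligned to hg19 with HISAT2 and counted through StringTie, whereas the submitters' processing notes name TopHat2 2.0.4, HTSeq and edgeR 2.6.12. The deposited low counts piled up at 4 (3287 entries, against 2136 at 3 and 1509 at 5), so 1 read pair was taken as about 4 counts and the floor of 3 read pairs as 12 counts. Intervals and floors cover counting error only. The deposited table also holds a mean over libraries and the authors' own comparison (log2 fold changes, errors, test statistics, p-values), none of which was used.

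Counts were fitted with DESeq2 1.42.0 over all 24014 genes (two-sided Wald test, no covariate, Benjamini-Hochberg adjustment) and called at an adjusted p under 0.05. Log2FC is AP1AR-DT_OE over control. Lengths and GC content came from GENCODE v44 mapped to GRCh37 (longest transcript, 23954 genes matched). GC correction removed a lowess trend (span 0.3). The members and gene lists were chosen with earlier results of these data known, and 128 of 133 list symbols were found. Genes named were the members, other family genes, AP1AR-DT, overlapping neighbours and, per list, those called or with an unadjusted p under 0.05 and the 2 expressed genes with the largest absolute Log2FC. HAND2, DBH, MYCN and CDKN1A were named after their values were seen, as were regulators named without values. Some genes that this rule names are not reported here. Alternatives were edgeR 4.0.16, TMM factors, low-count filters, a likelihood-ratio test, a block for the replicate number, GC correction, counts divided by 4, other lengths and leaving out each library. Independent filtering tuned to 0.05 and MANE Select lengths were added after seeing the data.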

Additional observations from a re-analysis of the deposited data

How the results depend on the processing

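No member was called under any alternative. In place of 33 genes called in all, edgeR's quasi-likelihood test called 0, AP1AR-DT included (112 at an unadjusted p under 0.05). GC correction gave 55, the block added to it gave 60, and dividing counts by 4 gave 15. It was 45 to 90 when a library was left out, and between 24 and 44 under the other alternatives, among them 37 (16 of the 33) with the replicate block in DESeq2 and 44 (24 of the 33) with it in edgeR. Libraries with the same number deviated together from their group means (correlation 0.49 across 13298 genes), but no label ties a number to a shared culture or day. Of the pathway list genes, 0 were called as reported and 1, GDF15, with the replicate block in DESeq2 (adjusted p = 1.56e-05), with it in edgeR (adjusted p = 0.039) and with the block and GC correction together (adjusted p = 5.10e-08). PRRX1 was called in those 3 fits (Log2FC -1.76 to -1.68) and with GC correction alone (-1.76, adjusted p = 0.0011). When a library was left out, the count of pathway genes called was 0 to 1. The cause was not tested.

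The sign of a member turned in 3 of 99 values under the alternatives that keep all libraries: BAK1 with the replicate block (0.0055), and BCL2L11 with the filter of 10 counts in 2 libraries (-0.0024) and with GC correction (-0.084). It turned in 16 of 36 when a library was left out. The ranges were then -0.54 to 0.23 for BCL2, -0.34 to 0.53 for BCL2L1, -0.56 to 0.34 for MCL1, -0.69 to 0.34 for BAX, -0.47 to 0.53 for BAK1, -0.72 to 0.97 for BCL2L11, -0.16 to 0.41 for BBC3, -1.504 to 0.60 for PMAIP1 and -0.18 to 0.58 for BAD. With these fits a lone library is assumed to vary like the other group. The difference in the log2 ratio of pro-death to pro-survival members, 0.09 as reported, was -0.04 without MCL1, 0.03 to 0.13 under the other alternatives, and -0.06 to 0.24 when a library was left out, each less than 1 SD away.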
